A study of Danio rerio with 20 samples.

Results

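The creatine kinase family of the zebrafish was followed in oligodendrocyte precursor cells (OPCs, dividing glia of the central nervous system whose progeny wrap axons in myelin). Its 7 members, ckmt1, ckmt2a, ckmt2b, ckma, ckmb, ckba and ckbb, were taken by gene symbol from the 31743 genes listed for every library. The family was chosen by the measured 4AP response: ckmt1 was among the genes with the largest falls in 4AP against its control. The values of ckmt1 in that comparison are therefore given as a description, with no test. Per the series' design text and the labels, the cells were sorted from fish treated for 16 h, and 20 libraries formed 4 groups of 5. The groups were 4AP (4-aminopyridine, a blocker of voltage-gated potassium channels), the 4AP control, demyelination induced with capsaicin acting on the TRPV1 channel, and the demyelination control. What the control fish received, the age and strain of the fish, the transgene behind the sort or the TRPV1 expression, and whether fish were pooled are not given in the sources used here. Nothing in the labels says that the replicates came from separate fish or sorts, so p-values measure the spread between these samples, which may be technical.

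Creatine kinases move a phosphate group between ATP and creatine, and cells use the phosphocreatine that results as a quickly spent store of energy. Mitochondrial forms load creatine with phosphate where ATP is made, and cytosolic forms return the phosphate to ATP where it is spent, at ion pumps, myosin and growing processes. In mammals the ubiquitous mitochondrial form and the brain-type cytosolic form are found together in the nervous system, where the brain-type enzyme is abundant in oligodendrocyte lineage cells, while the sarcomeric mitochondrial form and the muscle-type cytosolic form are typical of muscle.

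Depth and composition differed between libraries. Total gene reads (exon plus intron reads) ran from 163158 to 897620 over the 4AP controls and from 356494 to 1744483 over the 4AP libraries. For the demyelination experiment they ran from 1180 to 282966 over the controls and from 38314 to 3528970 over the treated libraries. Demyelination control 1 had 1180 reads, none of them from a creatine kinase, and 3 reads in it would equal 2542 CPM (reads of a gene per 1000000 total gene reads), so its zeros say little. Each deposited table's name began with a prefix that the labels do not explain: P1 for 4AP controls 1 to 4, P2 for 4AP control 5 and the 5 4AP libraries, and P3 for the whole demyelination experiment. In the P1 controls 9750 to 11048 genes had a read, against 17096 to 22644 in the P2 libraries. The 8 OPC markers summed to 213 to 374 CPM in the P1 controls, with gpr17 and ppp1r14ba at 0 in all 4, and to 359 to 670 CPM in the P2 libraries. Markers of other tissues were present as well: 9 epidermal genes summed to 3909 to 14642 CPM and 19 skeletal muscle genes to 3293 to 15735 CPM over the 19 libraries other than demyelination control 1.

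Of the 7 members, 5 had enough reads to be tested in 4AP against its control, 3 in demyelination against its control and 4 in the difference between both responses, by edgeR's quasi-likelihood test with Benjamini-Hochberg adjustment over all genes tested. In the 4AP comparison 13.1% of the 5161 genes tested passed an adjusted p under 0.05, with 2.98% higher and 10.1% lower (154 and 520 genes; scaled by library totals in place of TMM, 411 and 207). None of the 4 members tested besides ckmt1, the gene for which the family was chosen, passed. An unadjusted p under 0.05 was found for 33.2% of the genes, and among these 4 members for ckma and ckba. In demyelination 0.0% of 823 genes and none of the 3 members passed, while 9.48% of the genes and none of these members had an unadjusted p under 0.05. The difference between the responses passed at 1.66% of 3981 genes, 14 higher and 52 lower in 4AP (60 and 10 with library totals), and at none of the 4 members. At an unadjusted p under 0.05 it passed at 16.4% of the genes and at 1 of the 4 members, ckba.

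Read per kilobase of exon, the family was led by the muscle-type genes. The kit counts transcript ends, so a level divided by length is at best an approximate scale. The division can change the order of genes. By mean CPM, not divided by length, ckmt1 at 158 was above ckbb at 147 in the 4AP controls, the reverse of their order per kilobase. In the 4AP controls the mean level was 325 ± 68.4 CPM per kilobase for ckma and 225 ± 46.6 for ckmb (SD, n = 5). The brain-type ckbb at 74.5 ± 43.0 and ckmt1 at 69.1 ± 36.7 CPM per kilobase followed and did not differ beyond their spread. The order of these 2 genes was not the same in all controls: ckmt1 was the higher in each of the P1 controls, with means of 82.5 against 56.3 CPM per kilobase (n = 4), and ckbb in the fifth control, with 148 against 15.6. Below them were ckba at 25.8 ± 14.3, ckmt2b at 1.34 ± 3.0 and ckmt2a at 0.210 ± 0.470 CPM per kilobase. By mean CPM, not divided by length, ckma was 238th of the 21641 genes with a read in the 4AP controls, and ckmt1 was 585th. In 4AP the means in CPM per kilobase were 253 for ckma, 210 for ckmb, 127 for ckbb, 15.03 for ckba, 10.6 for ckmt1, 4.92 for ckmt2b and 2.72 for ckmt2a. By mean CPM, not divided by length, ckmt1 stood 4864th of 25155 genes in 4AP. The demyelination libraries had the muscle-type pair on top, with means of 226 CPM per kilobase for ckma and 234 for ckmb. Then came ckbb at 54.7, ckba at 15.1, ckmt1 at 8.13, ckmt2b at 5.02 and ckmt2a at 3.65. These levels count intron reads too. In demyelination introns held 9 of 11 ckmt2a reads, 13 of 69 of ckmt1, 6 of 35 of ckmt2b and 33 of 220 of ckba. They held at most 0.626% of the reads of ckma, ckmb or ckbb.

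**Figure D1:**
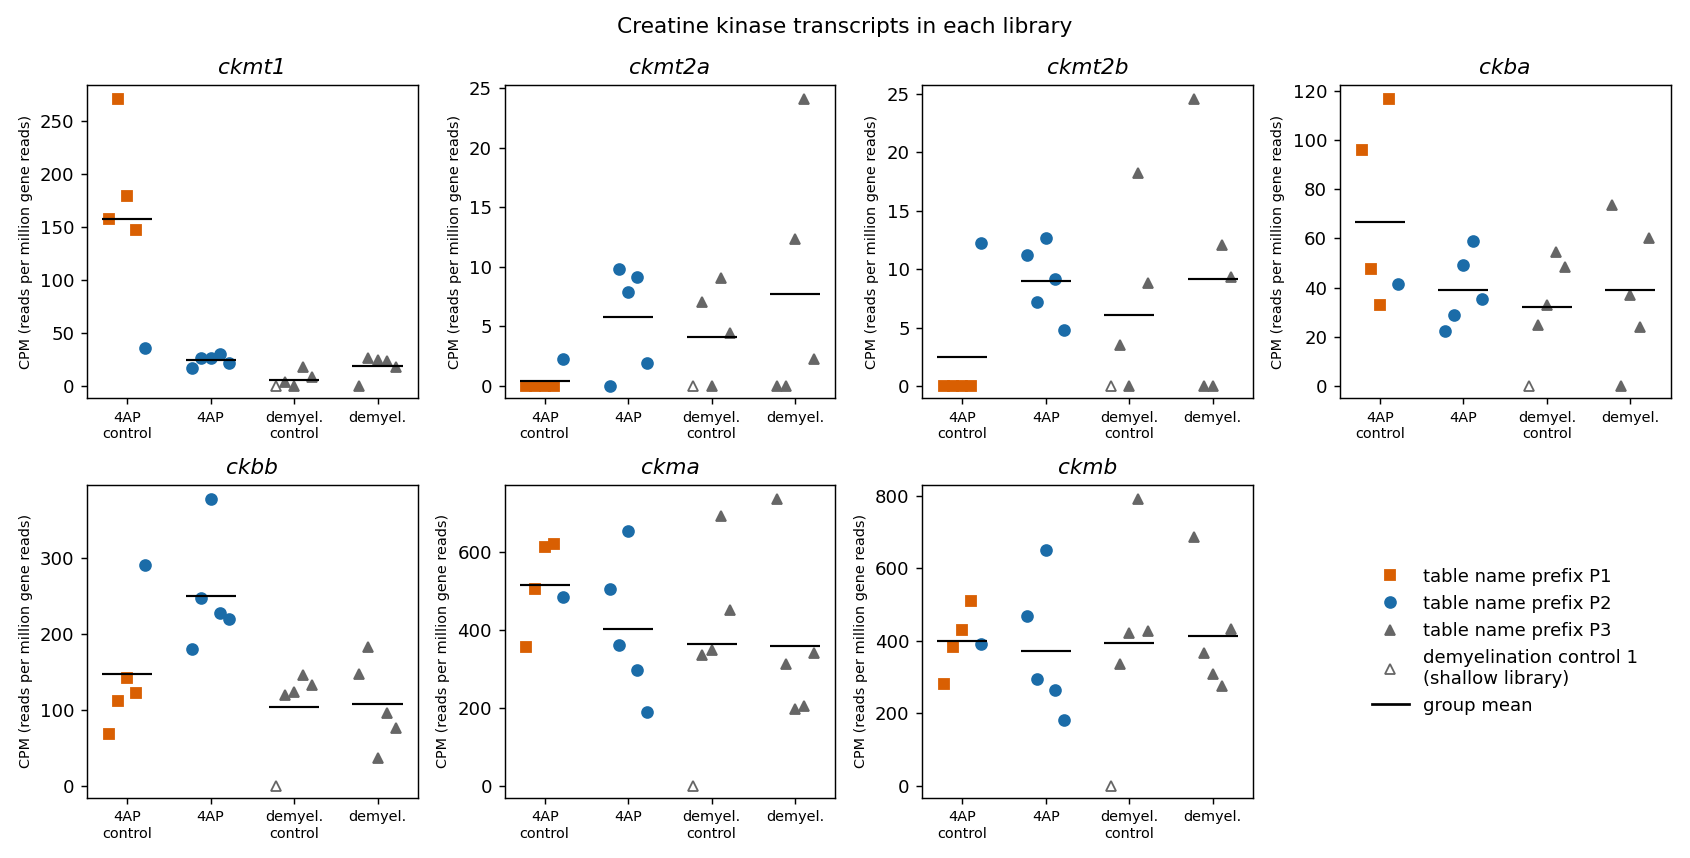
Level of each creatine kinase gene in every library, in CPM of total gene reads, by group, with library prefixes marked and the open triangle standing for demyelination control 1 (1180 reads). The 4 P1 controls hold the high ckmt1 levels, 147 to 271 CPM, while ckma and ckmb spread over similar ranges in all groups.

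The level of ckmt1 in 4AP controls 1 to 4 differed from that in the P2 libraries. ckmt1 (ENSDARG00000016598, chromosome 25, 21829777 to 21847553, plus strand, GRCz11) encodes the ubiquitous mitochondrial form. Its level in the 4AP controls was 158, 271, 179, 147 and 35.6 CPM, from 51, 80, 38, 24 and 32 reads. In 4AP it was 16.8, 26.0, 26.9, 29.8 and 21.9 CPM, from 6, 29, 17, 52 and 23 reads. All 5 controls lay above all 5 4AP libraries, a pattern of no overlap that 1.28% of the genes tested showed in this direction. The fifth control lay close to the 4AP libraries: its exact Poisson 95% interval, 24.4 to 50.3 CPM, overlapped the 22.3 to 39.1 CPM of 4AP replicate 4. The fitted log2 fold change on the TMM scale was -3.0 ± 0.45 (SE), the 13th lowest of 5161; scaled by library totals it was -2.57 ± 0.43.

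When the prefix was added to the model, ckmt1 had a log2 fold change of -0.70 ± 0.48, and among the P2 libraries alone, where 4AP control 5 was the single control, it was -0.73 ± 0.43. The prefix and the group cannot be told apart for controls 1 to 4, since P1 held no 4AP library. Adding the library total instead gave -2.35 ± 0.69. The ckmt1 level of the P1 controls exceeded that of all 15 other libraries of at least 10000 reads. The same held for 6.0% of the 3981 genes tested for the difference between both responses, which do not include ckmt1. Besides the demyelination experiment, the 15 other libraries include the 4AP libraries, whose comparison with the controls chose ckmt1. Several measures differed between the P1 controls and the P2 libraries. Total gene reads were 163158 to 323598 in the P1 controls and 356494 to 1744483 in the P2 libraries. Of these, 34.3% to 38.5% in P1 and 20.5% to 29.8% in P2 lay in introns. In P3 without demyelination control 1 the totals were 38314 to 3528970, with all but demyelination 5 at 282966 or fewer. There 34.8% to 41.4% of the reads lay in introns, near the P1 share. Over the P3 libraries ckmt1 was at 0 to 26.1 CPM. The 13 neuronal markers summed to 95.8 to 270 CPM in the P1 controls, with snap25b, stmn2a, gap43 and gad2 at 0 in all 4. In the P2 libraries they summed to 457 to 695 CPM, in 4 demyelination controls to 362 to 488 and in demyelination to 123 to 397. The 9 epidermal markers, none of them at 0 in either set, summed to 8955 to 14642 CPM in P1 and 5534 to 11824 CPM in P2. Unlike the P1 and P2 ranges of the other measures, these epidermal ranges overlap. The part of these measures in the ckmt1 result was not tested. In bulk samples such as these, fewer cells of a type and less RNA per cell cannot be told apart.

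The reads assigned to ckmt1 could be described further. In the P1 controls 0 of 193 ckmt1 reads crossed an exon-exon junction (exact binomial upper limit 1.89%) and 0 lay in introns. In 4AP 3 of 127 reads crossed a junction (2.36%), and in demyelination 4 of 69 did. Introns held 3 of the 127 and 13 of the 69. For comparison, in the P1 controls 51 of 495 ckma reads and 25 of 378 ckmb reads crossed a junction. The counts were 3 of 71 for ckba and 3 of 105 for ckbb. Of all 426 ckmt1 reads 98.8% were unique to the gene, and of the reads of each other member between 99.47% and all were.

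In the demyelination experiment ckmt1 was low. The controls had 0, 3.53, 0, 18.2 and 8.82 CPM, from 2 reads at most in any library. The demyelination libraries had 0, 26.1, 24.7, 24.1 and 18.1 CPM, and all but demyelination 5, with 64 reads, rested on 2 reads or fewer. The groups overlapped at 0, and control 4, at 18.2 CPM from 2 reads, lay just above demyelination 5, at 18.1 CPM. ckmt1 did not pass the filter on low counts there, and without the filter its log2 fold change was 1.30 ± 0.86 (95% interval -0.39 to 2.99, edgeR adjusted p = 0.821). Means were 18.6 ± 10.8 CPM in demyelination (n = 5) and 7.64 ± 7.92 CPM in the 4 controls other than control 1 (SD), so at this depth no difference could be detected. Without the filter the difference between both responses of ckmt1, which contains the 4AP values that chose the family, was -4.17 ± 0.91 on the log2 scale.

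ckmt2a (ENSDARG00000069615, chromosome 10, 3111004 to 3129887, plus strand) and ckmt2b (ENSDARG00000039929, chromosome 5, 51594209 to 51609006, plus strand) encode the sarcomeric mitochondrial form. Neither had a read in the P1 controls, whose 994426 reads together set a limit of 3.02 CPM at 3 reads. The fifth 4AP control had 2 reads of ckmt2a (2.23 CPM) and 11 of ckmt2b (12.3 CPM). ckmt2a in 4AP stood at 0, 9.85, 7.90, 9.17 and 1.91 CPM. ckmt2b in 4AP was found in every library, at 11.2, 7.16, 12.6, 9.17 and 4.77 CPM. Opposite to ckmt1, both genes were at 0 reads in the P1 controls. ckmt2b had reads in all 6 P2 libraries and ckmt2a in all of them but 4AP replicate 1. A level lower in all 4 P1 controls than in all 6 P2 libraries was common. It was found for 24.7% of the 3981 genes tested for the difference between both responses, which do not include ckmt2a or ckmt2b. Pooled over the 6 P2 libraries, ckmt2a had 36 reads, or 6.21 CPM (exact Poisson 95% interval 4.35 to 8.60), and ckmt2b had 52 reads, or 8.97 CPM (6.70 to 11.8). Both intervals lie above the P1 limit and above 3.71 CPM, the exact Poisson 95% upper limit pooled over P1. By library, 4AP control 5 and 4AP replicates 1 and 5 were below the P1 limit for ckmt2a. Taken singly, the P1 controls had upper limits of 11.4 to 22.6 CPM for either gene. No P2 level of ckmt2a reached 11.4 CPM, so the difference rests on pooling. The pooled intervals cover counting error only, not the spread between libraries. The P1 controls had reads of fewer genes in general, as given above. The 4 heart muscle markers summed to 0 to 12.3 CPM in P1, with myh6 and tnnt2a at 0, and to 14.0 to 73.4 CPM in P2. The 14 photoreceptor markers summed to 12.4 to 44.0 CPM in P1, with 8 of them at 0, and to 50.5 to 155 CPM in P2. The 19 skeletal muscle markers were not lower in P1. They summed to 5757 to 11945 CPM in P1, with none of them at 0, and to 3293 to 10173 CPM in P2. The part of these measures in the result was not tested. Within P2 the control lay inside the range of the 4AP libraries for ckmt2a and for ckmt2b. Neither gene passed the filter in any comparison. Without the filter the 4AP log2 fold change was 2.34 ± 1.00 for ckmt2a (edgeR adjusted p = 0.165) and 0.74 ± 0.76 for ckmt2b (0.572). In demyelination it was -0.28 ± 0.95 (0.970) and 0.30 ± 0.89 (0.957). Of the 11 ckmt2a reads in the demyelination libraries, 9 lay in introns.

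The brain-type cytosolic pair differed in level and in its arrangement across libraries. ckbb (ENSDARG00000043257, chromosome 20, 20816747 to 20821789, minus strand) was the more abundant. Its level in the 4AP controls was 68.0, 112, 141, 123 and 291 CPM, and in 4AP it was 180, 247, 378, 228 and 220 CPM. The P1 controls were the lowest 4 of the 10 libraries, while the fifth control was second only to 4AP replicate 3, so the groups overlapped. The log2 fold change was 0.45 ± 0.33 (95% interval -0.19 to 1.1, edgeR adjusted p = 0.333). Without the fifth control it was 0.92 ± 0.28 and passed (edgeR adjusted p = 0.0121). In that fit 2140 of the 4373 genes tested passed, 1155 of them higher. With the prefix as a term the ckbb log2 fold change was -0.41 ± 0.40, and within P2 it was -0.45 ± 0.40, the opposite sign. A level in all 4 P1 controls below that of all 6 P2 libraries was shared by 24.7% of 3981 genes.

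ckbb in the demyelination controls was 0, 120, 124, 146 and 132 CPM, and in demyelination 147, 183, 37.0, 96.2 and 75.9 CPM. Control 1 aside, the controls lay within a narrow band that the demyelination libraries spanned on both sides. The log2 fold change was -0.17 ± 0.34 (95% interval -0.84 to 0.50, edgeR adjusted p = 0.896). The 4AP response minus the demyelination response was 0.73 ± 0.56 on the log2 scale (edgeR adjusted p = 0.561).

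ckba (ENSDARG00000069752, chromosome 13, 15682075 to 15702736, minus strand), the second brain-type gene, was at 95.8, 47.4, 33.0, 116 and 41.2 CPM in the 4AP controls and at 22.4, 28.6, 49.0, 59.0 and 35.3 CPM in 4AP. Controls 1 and 4 were above every 4AP library, and the other 3 lay among them. Its log2 fold change was -1.04 ± 0.41 (95% interval -1.85 to -0.24, edgeR adjusted p = 0.0926, unadjusted p = 0.0205, the 1141st smallest of 5161). Scaled by library totals it was -0.64 ± 0.41. An unadjusted p under 0.05 was found for 33.2% of the genes tested. With DESeq2's Wald test the adjusted p was 0.0318, and without the fifth control edgeR gave -1.15 ± 0.39 (adjusted p = 0.0226). The Wald test called 1132 of 5161 genes, and edgeR without the fifth control called 2140 of 4373. With the prefix as a term the ckba log2 fold change was -0.24 ± 0.59. In the demyelination controls ckba was at 0, 24.7, 33.0, 54.6 and 48.5 CPM, and in demyelination at 73.5, 0, 37.0, 24.1 and 60.1 CPM, with overlap between the groups. It did not pass the filter there. Without the filter its log2 fold change was 0.07 ± 0.60 (edgeR adjusted p = 0.994). The difference between both responses was -1.39 ± 0.67 (95% interval -2.71 to -0.079, edgeR adjusted p = 0.294).

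**Figure D2:**
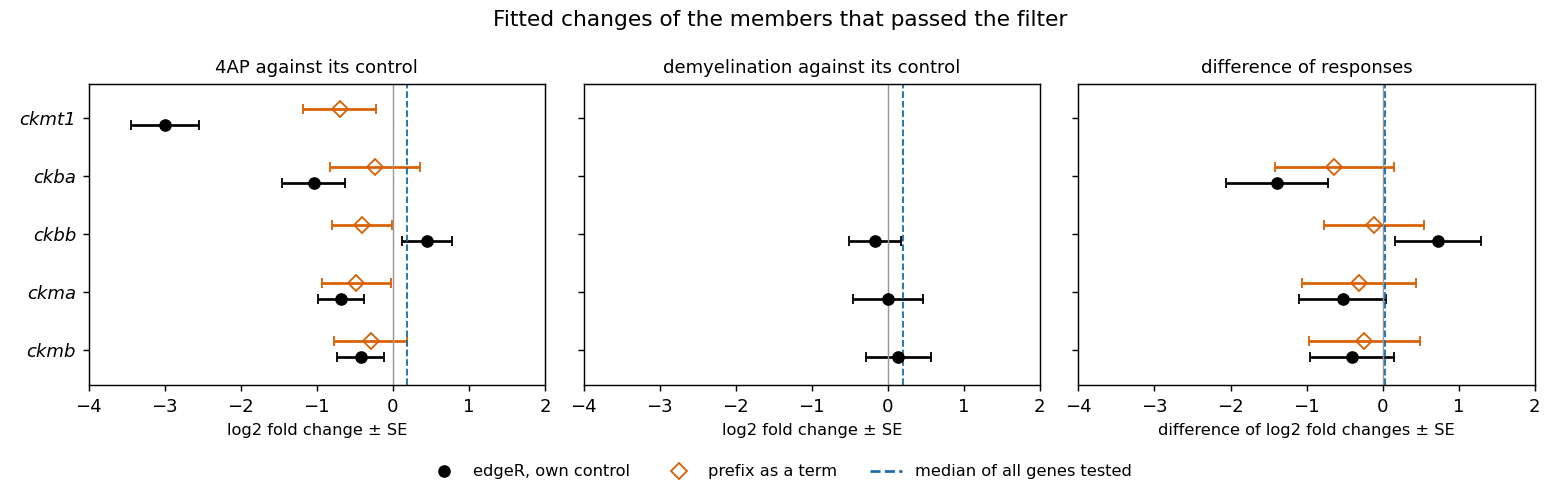
Fitted log2 fold change ± SE of each creatine kinase gene that passed the filter, for 4AP, for demyelination and for the difference between both responses. Open diamonds mark the fit with the prefix as a term, for 4AP and for the difference. The dashed line marks the median of all genes tested. ckmt1 in 4AP, at -3.0, is the gene for which the family was chosen. The 95% intervals of ckmb and ckbb, which are wider than the bars drawn, include 0 in each comparison. Those of ckma in 4AP and of ckba in 4AP and in the difference exclude 0, without adjustment for the number of genes tested.

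The muscle-type pair kept step with muscle transcripts. ckma (ENSDARG00000035327, chromosome 5, 36832079 to 36837846, minus strand) was at 355, 504, 613, 619 and 485 CPM in the 4AP controls and at 505, 360, 654, 298 and 190 CPM in 4AP. 4AP replicates 4 and 5 were below every control, replicate 3 was above every control, and the other 2 lay among the controls. On the TMM scale the log2 fold change was -0.68 ± 0.30 (95% interval -1.27 to -0.10, edgeR adjusted p = 0.122, unadjusted p = 0.0340). Scaled by library totals it was -0.30 ± 0.31. DESeq2's Wald test gave an adjusted p of 0.0468 and voom with sample weights gave 0.0259. Of the 5161 genes tested, the Wald test called 1132 and voom called 2196. With the prefix as a term the ckma log2 fold change was -0.48 ± 0.45, and within P2 it was -0.52 ± 0.46. In the demyelination controls ckma was at 0, 336, 347, 691 and 450 CPM, and in demyelination at 735, 313, 197, 204 and 341 CPM. The 735 CPM of demyelination 1 rested on 30 reads, and the groups overlapped. The log2 fold change was 0.00 ± 0.46 (95% interval -0.90 to 0.91, edgeR adjusted p = 0.999).

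ckmb (ENSDARG00000040565, chromosome 15, 23643718 to 23647078, minus strand) was at 281, 382, 429, 509 and 391 CPM in the 4AP controls and at 468, 294, 651, 265 and 180 CPM in 4AP. As with ckma, 4AP replicate 3 was the highest and replicates 4 and 5 the lowest of the 10. On the TMM scale the log2 fold change was -0.43 ± 0.31 (95% interval -1.03 to 0.18, edgeR adjusted p = 0.333). Scaled by library totals it was -0.04 ± 0.32. With the prefix as a term the ckmb log2 fold change was -0.29 ± 0.48, and within P2 it was -0.33 ± 0.49. In the demyelination controls ckmb was at 0, 336, 421, 791 and 428 CPM, and in demyelination at 686, 365, 308, 277 and 432 CPM. Its log2 fold change there was 0.14 ± 0.42 (95% interval -0.69 to 0.97, edgeR adjusted p = 0.937). The difference between both responses was -0.53 ± 0.57 for ckma (edgeR adjusted p = 0.719) and -0.40 ± 0.55 for ckmb (0.795).

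The 19 skeletal muscle markers summed to between 5757 and 11945 CPM in 4AP controls and between 3293 and 10173 CPM in 4AP libraries. For 4 demyelination controls the sum was 7492 to 15735 CPM, for the treated libraries 4921 to 14390 CPM, and no marker was at 0 throughout a group. Over 19 libraries, without demyelination control 1, the level of ckmb followed this sum with Pearson's r = 0.91 (permutation p = 2e-05, the smallest the permutations can give; adjusted over 5 relations 0.0001) and Spearman's rho = 0.87 (permutation p = 2e-05). ckma did so with r = 0.79 (permutation p = 0.00014, adjusted 0.00035) and rho = 0.74 (permutation p = 0.00052). Leaving out the 2 libraries farthest from the median of the muscle sum gave r = 0.80 for ckmb and 0.66 for ckma. Within P2 (n = 6) r was 0.94 for ckmb and 0.92 for ckma, each with an exact permutation p of 0.00278. Within P3 (n = 9) r was 0.97 for both, with exact permutation p of 0.000386 for ckmb and 0.000612 for ckma. P1, with 4 libraries, was too small for a value. For the brain-type genes and ckmt1 the relation did not pass: over 19 libraries r was 0.39 for ckba (permutation p = 0.121), -0.03 for ckbb (p = 0.958, permutation) and -0.07 for ckmt1 (p = 0.829, permutation), with adjusted p of 0.202, 0.958 and 0.958. Within P2 their r was 0.22, 0.79 and 0.15, and within P3 it was 0.62, 0.56 and -0.32, in the same order, and none of the 6 passed an exact permutation test. All these values are shares of the same library totals, so the libraries' composition is common to both axes.

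**Figure D3:**
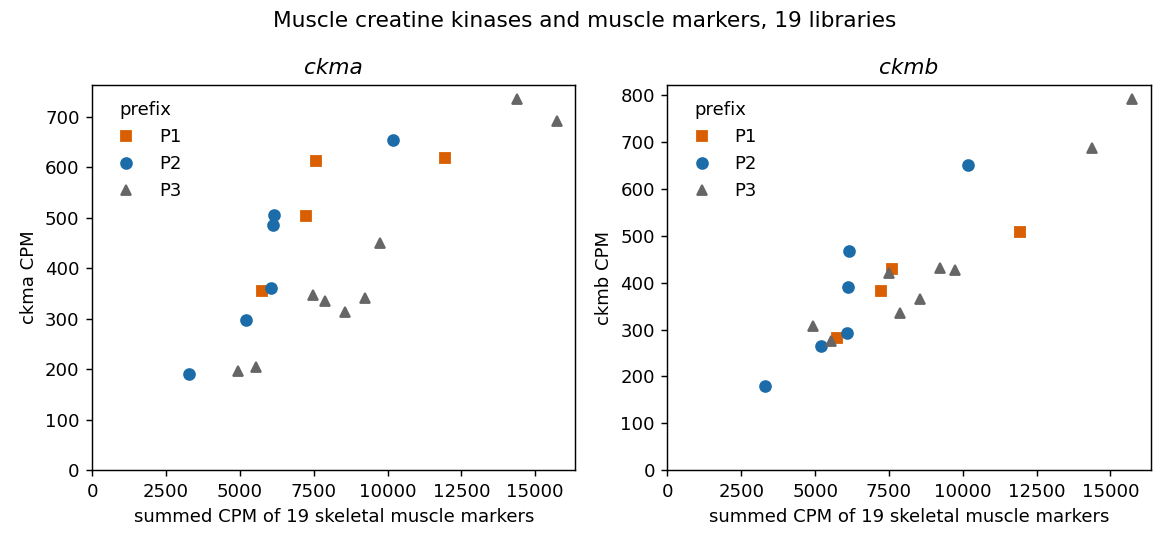
Levels of ckma and ckmb against the summed level of 19 skeletal muscle markers, 1 point per library, in CPM of total gene reads for 19 libraries. ckma and ckmb rise with the muscle sum (r = 0.79 and 0.91).

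Within the family the shares shifted with the members described above. ckmt1 made up 14.9 ± 4.68% of family reads in the P1 controls (SD, n = 4), 2.83% in the fifth 4AP control and 2.45 ± 0.95% in 4AP (n = 5). ckbb made up 8.45 ± 1.26%, 23.1% and 24.1 ± 6.85% in the same order. The fifth control was thus on the side of the 4AP libraries for both genes. ckma held 35.6% to 39.9% of family reads on average in all 4 groups. ckmb was 43.6 ± 1.57% of the reads of the muscle-type pair in the 4AP controls and 47.7 ± 1.87% in 4AP (SD, n = 5), with the ranges 41.2% to 45.1% and 44.9% to 49.9%, which overlap. In the demyelination experiment this share was 51.7 ± 2.84% in 4 controls and 55.3 ± 4.71% in the 5 treated libraries. The ranges, 48.7% to 54.8% and 48.3% to 61.0%, overlap, and demyelination 1 to 4 had at most 30 reads of either gene.

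**Figure D4:**
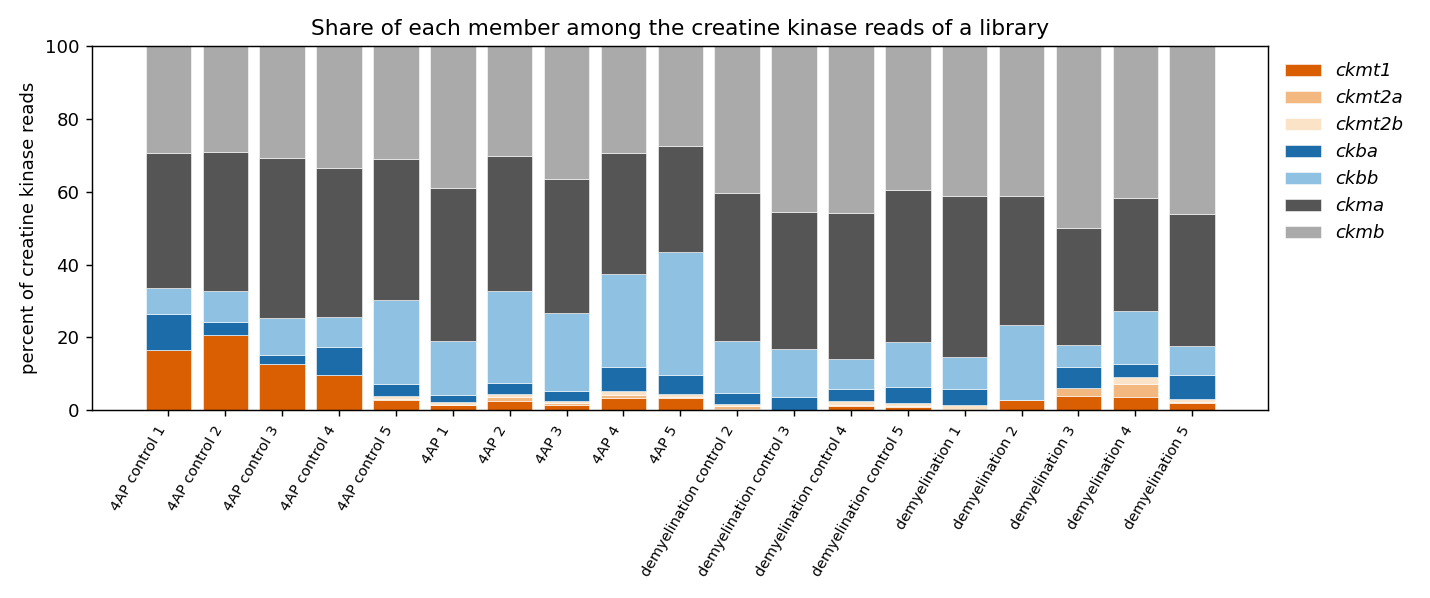
Share of each member in the creatine kinase reads of each library, in percent, for the 19 libraries with such reads. ckmt1 takes 9.72% to 20.6% in the P1 controls and at most 4.00% in the other libraries, and ckbb takes 14.9% to 33.7% in the P2 libraries.

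Of the 3 genes of creatine supply, 1 passed the filter. gamt, which makes creatine from guanidinoacetate, was at 58.7, 125, 123, 135 and 70.2 CPM in the 4AP controls and at 56.1, 61.8, 68.0, 94.01 and 68.6 CPM in 4AP. Controls 2 to 4 were above every 4AP library, and the other 2 lay among them. Its log2 fold change was -0.82 ± 0.32 (edgeR adjusted p = 0.0872), and -0.44 ± 0.31 when scaled by library totals. gatm, the enzyme of the preceding step, had 0 reads in the P1 controls, 15.6 CPM in the fifth control and 5.61 to 16.1 CPM in 4AP. It had reads in all 6 P2 libraries, as for ckmt2b. Levels lower in all P1 controls than in all P2 libraries were found for 24.7% of 3981 genes, as given above. slc6a8, the creatine transporter, was at 21.0 ± 13.1 CPM in the 4AP controls and 12.6 ± 1.79 CPM in 4AP (SD, n = 5). Neither gatm nor slc6a8 passed the filter.

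Other genes that handle ATP were counted by list, without a test of the list. The median log2 fold change of all 5161 genes tested in 4AP was 0.19, with 10.1% of them called lower and 2.98% higher. Changes and calls below can be read against these values. Of 11 ATPases tested from a list of 20 (sodium, potassium and calcium pumps), atp1b3a, a sodium pump beta subunit, fell and the other 10 did not pass, with a list median of 0.51. atp1b3a was at 68.0, 98.1, 51.9, 85.8 and 26.7 CPM in the 4AP controls and at 39.3, 31.3, 37.9, 42.4 and 20.01 CPM in 4AP, and its log2 fold change was -1.26 ± 0.40 (edgeR adjusted p = 0.0444). Again the fifth control lay among the 4AP libraries. Of 10 glycolytic enzymes tested from a list of 16, ldhba, a lactate dehydrogenase subunit, fell and the other 9 did not pass, with a median of -0.45. ldhba was at 609, 504, 415, 472 and 326 CPM in the controls and at 244, 311, 202, 275 and 292 CPM in 4AP, with no overlap. Such a lack of overlap in this direction was found for 1.28% of the genes tested. The log2 fold change of ldhba was -1.14 ± 0.27 (edgeR adjusted p = 0.0140). None of the 3 nucleoside diphosphate kinases or the 5 mitochondrial carriers and channels of ATP and phosphate that were tested passed, and their medians were 0.18 and -0.22. In demyelination none of the members of these lists that were tested passed, where no gene passed at all.

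Counts in the marker lists stand against 10.1% of all genes tested lower and 2.98% higher. Of 16 skeletal muscle genes tested in 4AP, 4 were called lower and none higher, with a median log2 fold change of -0.49. The estimate was above 0 for 5 of the 16, among them acta1b (1.29, edgeR adjusted p = 0.195) and ttn.2 (1.18, edgeR adjusted p = 0.0674). Of the genes called lower, mylpfb, a myosin light chain, was at -1.87 and tnni2a.4, a troponin I, at -1.36 (edgeR adjusted p = 0.0188 and 0.0269). ldb3b, a Z-disc protein, was at -1.26 and pvalb1, a parvalbumin, at -0.96 (edgeR adjusted p = 0.0466 and 0.0470). Of 6 OPC markers tested, cspg4, the NG2 proteoglycan, rose by 1.42 on the log2 scale (edgeR adjusted p = 0.0323), and no other was called. The median of this list was 0.60. Of the 6, 4 were above 0, and olig1 and olig2 were at -0.07 and -0.23. slc1a3a, a glutamate transporter of astroglia, and glulb, a glutamine synthetase, fell, with log2 fold changes of -1.89 and -1.14, as 2 of 6 astroglial genes tested (edgeR adjusted p = 0.01 and 0.0295). The epidermal claudin cldni fell by 0.95 on the log2 scale, 1 of 9 tested (edgeR adjusted p = 0.0411). None of the 7 myelin, 5 neuronal or 2 ionocyte genes tested passed. Of the 10 genes called in these lists, cspg4 and slc1a3a also passed when libraries were scaled by their totals. The other 8 kept their sign, with an edgeR adjusted p of 0.0526 or more. With the prefix added to the model no gene of the whole table passed in 4AP, 106 had an unadjusted p under 0.05, and atp1b3a took the opposite sign, at 0.15 ± 0.53.

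The genes whose levels were most like those of ckmt1 across 19 libraries, by Spearman's rho of log2 TMM-scaled CPM among 3044 genes, were srsf5a (0.82), TENM2_1 (0.81), CDPF1 (0.77), selenow1 (0.77) and reep5 (0.76). Over the 15 libraries outside P1 these values were 0.66, 0.67, 0.57, 0.54 and 0.55. For ckma, the most abundant member, they were actc1b, an alpha-actin of muscle (0.91), tnni2a.4 (0.89), ckmb (0.87), myl13, a myosin light chain (0.85), and smndc1 (0.83). Outside P1 they were 0.89, 0.86, 0.85, 0.84 and 0.78. The points share their library totals, and these values are descriptions.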

How the data were processed

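Libraries of transcript 3' ends were made from 1 or 4 ng of RNA with a QIAseq UPX kit, per the labels' protocols. The deposited tables give, per the file headers, read counts for 31743 genes in each library: total, unique, exon, intron and junction reads. The deposited TPM and RPKM columns do not differ from each other and hold CPM of exon reads with no scaling by length; they were used in 1 alternative. The build was GRCz11, per the submitters' processing notes; the aligner, counter, annotation, use of strand and treatment of molecular identifiers are not given in the sources used here. Reads may thus include copies of 1 molecule, and overlapping or closely related genes may share reads. Intervals and limits at 3 reads cover counting error only.

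CPM printed here are a gene's reads per 1000000 total gene reads, which include intron reads. Treated and control libraries of each experiment were fitted together (10 libraries), and the difference between both responses on 20 libraries, with edgeR 4.0.16 (filterByExpr, minimum count 10 and minimum total 15; TMM; robust quasi-likelihood test; limma 3.58.1, R 4.3.3). P-values were Benjamini-Hochberg adjusted over all genes tested, with a call at an adjusted p under 0.05. SEs are log2 fold changes divided by the square root of F. Correlations were tested by permutation (scipy 1.17.1, 100000 permutations, exact within a prefix). The fit was tested on simulated counts.

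The members, lists and tests were chosen with earlier results of these data known. The genes named are the 7 members, the called genes of each list (at most 6), the 3 genes of creatine supply, and the 5 genes most like ckmt1 and ckma by Spearman's rho (mean of at least 20 reads, libraries of at least 10000 reads, prior count 2). Library pairs within each group were compared by a chi-square test over genes. All differed except demyelination controls 1 and 2 (chi-square per degree of freedom 1.18 over 13 genes, p = 0.289), whose totals of 1180 and 282966 reads differ, and both were kept. The alternatives were DESeq2 1.42.0 (size factors or Wald test), library totals, voom, limma on the deposited CPM (log2, plus 1), no filter or a stricter filter, exon or unique reads, a threshold of 0.01, models with a replicate block, with the prefix or with the library total, and leaving out libraries. One list of genes is not reported here.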

Additional observations from a re-analysis of the deposited data

Results flagged for a closer look

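Within groups of 5, single libraries far from the others were looked for in each of the 7 genes and 4 groups, 28 in all. Chance flags about 1 in 20, except where the other 4 libraries hold 0 reads, since any read is then flagged. ckmt2a in 4AP control 5 stood at 2.23 CPM (2 reads) and ckmt2b in the same library at 12.3 CPM (11 reads). The other 4 controls had 0 reads of either, so both flags were fixed by those zeros. For ckmt2a the value lay below their exact Poisson 95% upper limits, 11.4 to 22.6 CPM. ckma in demyelination 1 stood at 735 CPM, from 30 reads, with the next library of the group at 341 CPM. ckbb in demyelination control 1, the library of 1180 reads, was at 0 CPM, with the next at 120 CPM.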

How the results depend on the processing

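The count of genes called in 4AP, 674, was 1132 with DESeq2's Wald test, 2196 with voom, 194 with exon reads, 133 at an adjusted p under 0.01, 448 with the replicate block, and 0 with the library total (496 at an unadjusted p under 0.05) or the prefix (106) as a term or among P2 libraries alone (532). Leaving out 1 library gave 271 to 2140, the latter without 4AP control 5. In demyelination the count of 0 became 7 with no filter, and 0 to 1 on leaving out 1 library. For the difference, 66 became 141 with the Wald test, 643 with voom, 114 with no filter, 39 with exon reads, 3 at 0.01, 8 with the replicate block, 0 with the prefix as a term (98 at an unadjusted p under 0.05), 133 without demyelination control 1 and demyelination 3, and 3 to 738 on leaving out 1 library. The replicate numbers gave no pairing (correlations of same-numbered deviations -0.10 to 0.11), and the block changed no member's call.

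Members' log2 fold changes took the opposite sign as follows, and the cause was not tested. In 4AP, ckbb was -0.41 with the prefix as a term and -0.45 within P2. In demyelination, ckma was -0.31 with library totals, -0.031 with the Wald test, -0.50 with no filter, -0.11 with a filter of 10 reads in every library, -0.16 with the replicate block, and -0.39 to 0.28 on leaving out 1 library; ckmb was -0.19 with library totals, -0.35 with no filter, and -0.086 to 0.47 on leaving out 1 library; ckbb was 0.039 with voom, 0.57 with limma on CPM, and -0.35 to 0.0082 on leaving out 1 library. For the difference, library totals gave 0.042 for ckma and 0.18 for ckmb, no filter 0.066 for ckmb, and the prefix as a term -0.11 for ckbb. Leaving out 1 library kept ckmt1 in 4AP between -3.22 and -2.67.

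Depth limited ckmt1, ckmt2a, ckmt2b and ckba in demyelination, where 4 of the 5 treated libraries had 38314 to 83149 reads. Library totals in place of TMM moved the median log2 fold change of all genes in 4AP from 0.19 to 0.55. The fit of P2 libraries alone and the fit without demyelination control 1 and demyelination 3 were added after seeing the data.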
